A study of Rattus norvegicus with 6 samples.

Results

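The end of rat chromosome 6 holds the gene of miR-203, the microRNA that was deleted in the knockout cells described here, together with the genes around it. Its members were taken by position alone, as every tested row of the deposited gene table on chromosome 6 of the rn6 genome build that starts at or above 120000000. This gave 192 of 26459 tested rows, 146 of them with a gene symbol and none at 0 in either group, and the other tested rows of chromosome 6 number 1068. RUCA-I is an epithelial line from an endometrial adenocarcinoma of the Lewis rat, and all cells were untreated. The WT group is 3 batches of wild-type RUCA-I cells, and the KO group is 3 miR-203 -/- lines made independently of each other. RNA was sequenced from both groups, and the authors' table gives 1 pooled value per row and group, in FPKM (fragments per kilobase of transcript and per number of fragments sequenced). The table used here gives no value per sample, so no SD is given, and read depth per sample is unknown. The only test against the replicates is the authors' Cuffdiff test, in which a row is called here where the adjusted p (q) is under 0.05. Whether the WT batches are separate cultures is not said in the labels, so the p-values measure only the spread between these samples, which may be technical on that side.

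Of 8 epithelial markers, 7 had a tested row, at 50.2 (Esrp1) to 501 FPKM (Epcam) in WT cells, and none was called. Markers of other cells were sparse: 1 of 8 for fibroblasts, 1 of 6 for leukocytes and 0 of 6 for endothelium had a tested row, and the 2 of 6 for B cells are given below. The summed level of the epithelial markers was 1299 FPKM in WT and 1287 in KO cells. Within that sum, Epcam stood at 501 and 419 FPKM, Krt8 at 204 and 241 and Krt18 at 103 and 121, each with an unadjusted p under 0.05 in the authors' deposited table.

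MicroRNAs are short RNAs cut from a hairpin by Drosha and Dicer, and they lower the mRNAs whose sites pair with their seed. miR-203 is best known from stratified epithelium, where it is made as cells leave the basal layer and represses the transcription factor p63. In RefSeq's gene order for the GRCr8 build, its gene lies between Aspg, an asparaginase, and Kif26a, an unusual kinesin that does not walk on microtubules and acts in signalling. Kif26a (chromosome 6, 136720334 to 136753980 on rn6) was therefore the fixed point from which distances were measured, from the nearest ends of the rows. Of 101 symbols among the 192 rows, 90 were found as a symbol or synonym on chromosome 6 in RefSeq.

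The deleted product is shown here because the labels alone give its loss. RefSeq (GRCr8) lists a hairpin of 97 bases on the plus strand, in which the capitals mark the mature miR-203a-3p, bases 52 to 73.

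Mir203 hairpin: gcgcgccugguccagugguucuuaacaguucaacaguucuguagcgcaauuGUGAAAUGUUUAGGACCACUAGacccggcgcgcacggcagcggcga

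The mature strands follow, 5′ to 3′, with the seed (bases 2 to 8) in capitals. The gene named Mir3545, or miR-203b, lies antisense to Mir203, on the minus strand.

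rno-miR-203a-3p: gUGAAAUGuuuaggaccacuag

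rno-miR-203a-5p: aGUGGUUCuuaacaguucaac

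rno-miR-203b-3p: uUGAACUGuuaagaaccacugg

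rno-miR-203b-5p: aGUGGUCCuaaacauuucac

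The 4 strands carry 4 different seeds, and no other of the 724 mature rat sequences in that table has any of these seeds. Because the 2 genes overlap on opposite strands, miR-203a-3p and miR-203b-5p are complementary over a run of 20 bases, as are miR-203a-5p and miR-203b-3p.

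Where 2 levels follow a gene below, the first is the pooled value of WT and the second that of KO cells. Neither Mir203 nor Mir3545 had a tested row, and neither did Aspg. The row nearest to Kif26a on the side of the microRNA gene had no symbol. This row (136705094 to 136706224, 14.1 kb before Kif26a) stood at 0.391 (WT) and 0.889 FPKM (KO), 2.27-fold higher in KO cells, which did not pass (p = 0.00715 and q = 0.324 in the authors' deposited table). It was the only tested row between the Tdrd9 row, 137 kb further away, and Kif26a, and RefSeq's order places Rd3l, Aspg and both microRNA genes between Tdrd9 and Kif26a. Whether the row overlaps the miR-203 gene was not tested, as no rn6 sequence was used.

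Kif26a itself stood at 6.98 (WT) and 8.03 FPKM (KO), 1.15-fold higher in KO cells, which did not pass (q = 0.997 in the authors' deposited table). A second row of that symbol, 399 bp long and 2.19 kb past the end of the first, stood at 1.39 and 2.65 FPKM, with p = 0.0495 and q = 0.829 in the authors' deposited table. All 3 rows were thus higher in KO cells, and none passed the test.

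**Figure D1:**
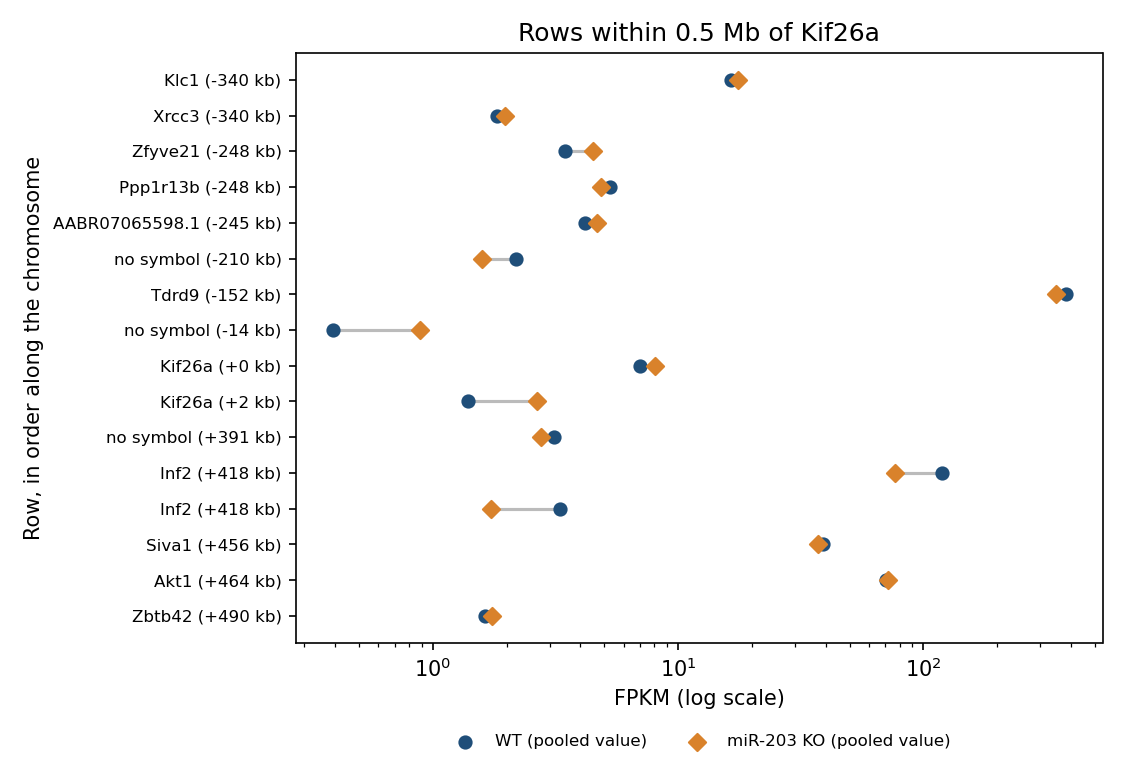
FPKM (log axis) of the rows within 0.5 Mb of Kif26a that had a mean of at least 1 FPKM, plus the row 14.1 kb before it, in chromosomal order with the distance in kb. Circles are the pooled WT value and diamonds the pooled KO value, so there are no error bars. The row without a symbol at 14.1 kb and the short Kif26a row lie higher in KO cells, both Inf2 rows lie lower, and most others nearly coincide.

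Before the locus lay genes of transport and genome repair. Klc1, a light chain of the cargo-carrying kinesin 1, stood at 16.5 (WT) and 17.6 FPKM (KO). Xrcc3, which acts in repair by homologous recombination and is listed with the same locus as Klc1, stood at 1.83 and 1.97 FPKM. Zfyve21, a focal adhesion protein, stood at 3.45 and 4.48 FPKM, and Ppp1r13b, which encodes the p53 partner ASPP1, at 5.27 and 4.86. These 2 genes share a listed locus as well, so reads could be divided between them in more than one way. The row named Tdrd9, for a helicase of the piRNA pathway, stood at 381 and 347 FPKM but spans only 187 bp (136567832 to 136568019), a length at which FPKM is unreliable. None of these rows was called.

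On the far side of Kif26a, the first named gene with a row was Inf2, a formin that builds and severs actin filaments (137171517 to 137180493). Inf2 stood at 119 (WT) and 76.4 FPKM (KO), for which the authors' deposited table lists p = 0.04795 and q = 0.822. The log2 of that ratio is −0.64, while the log2 fold in the authors' deposited table is −0.35, 1 of 4 member rows where the 2 figures differ by over 0.01. A second Inf2 row at the same locus stood at 3.29 and 1.73 FPKM. The next gene with a row, Siva1, a pro-apoptotic protein, stood at 38.8 and 37.1 FPKM. Akt1, the kinase of insulin and growth factor signalling, stood at 70.7 and 72.0 FPKM, a ratio of 1.02. Zbtb42, a zinc finger repressor, stood at 1.63 and 1.75 FPKM, and Cep170b, a relative of a centrosomal protein, at 22.04 and 21.5. Apart from Inf2, the 2 groups were close for these genes, and none of them was called.

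Of 18 genes listed as neighbours of miR-203, 12 had a tested row, all with a mean of at least 1 FPKM. None was called by Cuffdiff, against 1.05% of all tested rows, and 1 (Inf2) had an unadjusted p under 0.05 in the authors' deposited table. Each gene counts by its longest row, which leaves out the short Kif26a row given above, also under that p. Of the 12, 6 were higher and 6 lower, and the median log2((KO + 1)/(WT + 1)) was −0.0020. Over the 18090 rows of the whole table that average 1 FPKM or more, that median was 0.0046. All medians below are on this scale, with a pseudocount of 1, which understates changes of low rows.

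Further out within 1 Mb, the 2 groups were again close for most genes. Tnfaip2, induced by TNF, stood at 143 (WT) and 130 FPKM (KO), its neighbour Exoc3l4, a relative of exocyst subunits, at 34.3 and 36.0, and Cdc42bpb, a kinase acting on myosin below Cdc42, at 25.4 and 24.0. Eif5, which triggers GTP hydrolysis at the start codon, stood at 19.9 and 19.7 FPKM, and Mark3, a kinase of microtubule-associated proteins, at 19.3 and 20.01. Nudt14, a UDP-sugar hydrolase, stood at 13.4 and 14.6 FPKM. Cdca4, a cell cycle regulator, appeared in 8 rows on 1 locus that summed to 39.1 and 40.2 FPKM, 5 of them higher in KO cells. A row without a symbol (298 bp, 135939815 to 135940113) had the largest log2 ratio of the region, 1.45, from 0.491 to 3.08 FPKM, and did not pass (p = 0.03865 and q = 0.780 in the authors' deposited table).

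By distance from Kif26a, no class of rows stood far from 0. Of the 192 rows, 134 had a mean of at least 1 FPKM and 58 did not. The 15 rows within 0.5 Mb had a median log2 ratio of 0.027 with quartiles of −0.13 and 0.10, and the 20 rows between 0.5 and 1 Mb a median of 0.019. Between 1 and 2 Mb the median was 0.023 over 23 rows, and between 2 and 5 Mb −0.053 over 8 rows. Between 5 and 10 Mb it was −0.092 over 27 rows, and beyond 10 Mb −0.031 over 41 rows. Of the 20 rows between 0.5 and 1 Mb, 8 were Cdca4 rows on the same locus. Of the 23 rows between 1 and 2 Mb, 5 were short rows of Ighm, described below. Before Kif26a, 14 of the 19 rows between 5 and 10 Mb were lower in KO cells, and 2 of the 3 calls described next lie in that class. Past Kif26a, the 8 rows at that distance were 4 higher and 4 lower, with a median of −0.0037. Within 0.5 Mb the median was 0.073 before Kif26a and −0.066 past it, over 7 rows each.

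None of the 66 rows within 5 Mb was called by Cuffdiff, against 240 of the 18090 rows of the table with the same minimum, and 6 of them had an unadjusted p under 0.05 in the authors' deposited table. Of the 18090 rows, 1194 had such a p. Across the 134 rows, the log2 ratio and the distance had a Pearson r of −0.16 and a Spearman rho of −0.13. The size of the log2 ratio and the distance had a Spearman rho of −0.19. Rows share libraries and neighbouring rows can share transcripts, so these values are descriptions.

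**Figure D2:**
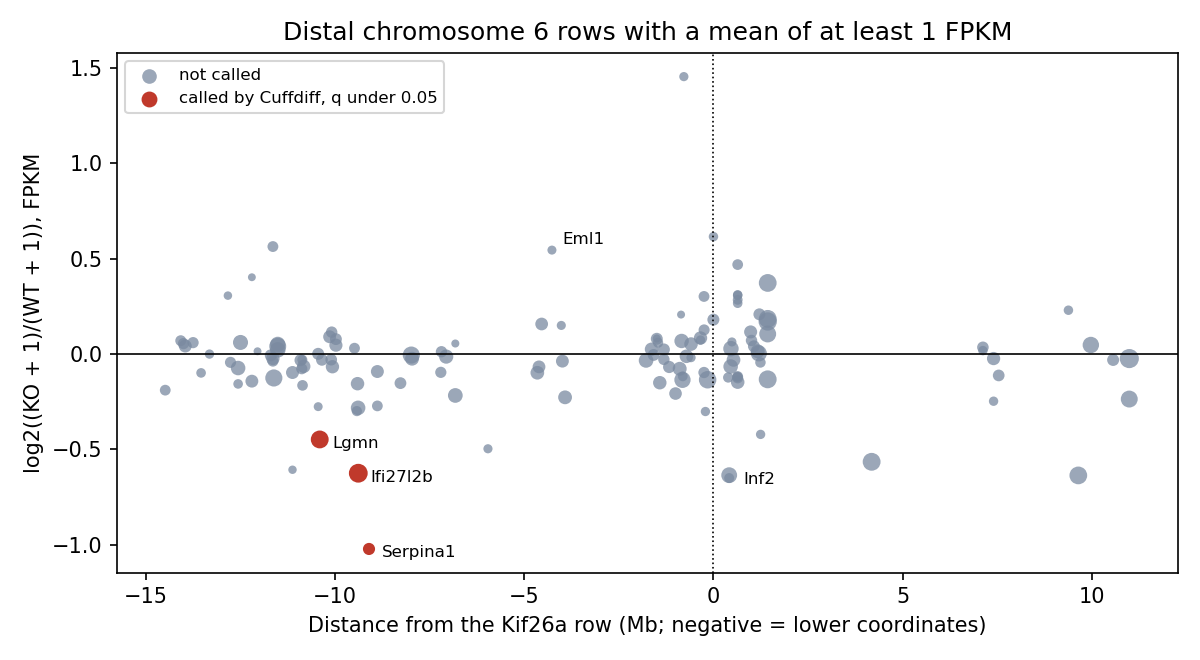
The log2 ratio of KO over WT with a pseudocount of 1 (vertical) against the distance from Kif26a in Mb (horizontal) for the 134 rows averaging at least 1 FPKM. Each point is 1 row, larger where its mean FPKM is higher. The 3 called rows, in red, lie 9.10 to 10.4 Mb before Kif26a and below 0, while points beside Kif26a scatter on both sides of 0.

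The calls of the region were 3 decreases within 1.34 Mb, far from the microRNA gene. Lgmn, Ifi27l2b and Serpina1 fell in KO cells, and no row rose by Cuffdiff's q. That is 3 of 192 rows, or 1.56%, against 1.05% of all tested rows called in either direction and 0.556% called lower. Rows called higher were 0.00% here and 0.491% of all tested rows. Whether these shares differ was not tested. In total RNA from whole cultures, fewer cells with a transcript and less of it per cell cannot be told apart.

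Lgmn, or legumain, is a lysosomal protease that cuts after asparagine (126282141 to 126320817). Its level fell from 106 FPKM (WT) to 77.3 (KO), a 1.37-fold decrease for which the authors' deposited table lists q = 0.00756. Ifi27l2b belongs to a family of small interferon-inducible membrane proteins (127336305 to 127339387). It dropped 1.55-fold, from 235 FPKM to 152, and the authors' deposited table lists the same q of 0.00756. Serpina1 is alpha-1-antitrypsin, the secreted inhibitor of neutrophil elastase (127610240 to 127622279). WT cells held 3.86 FPKM of it and KO cells 1.39, a 2.77-fold decrease, again at q = 0.00756 by the authors' deposited table. The first 2 are abundant transcripts with modest differences, and the last is a scarce transcript with the largest ratio among the calls. For all 3 the authors' deposited table lists p = 5e-05, so their shared q does not rank them.

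These 3 rows span 1.34 Mb, with 14 rows of at least 1 FPKM from the first to the last. Of the 14, 9 were lower and 5 higher in KO cells, with a median of −0.049. Called rows set both ends of the stretch and all 3 calls are among the 9, so this tally is a description. The last 5 rows in order, Otub2, Ddx24, Ifi27, Ifi27l2b and Serpina1, were all lower, and Ifi27l2b and Serpina1 among them are calls. Ifi27, of the same family as its neighbour Ifi27l2b, stood at 42.9 (WT) and 35.1 FPKM (KO) (p = 0.03055 and q = 0.720 in the authors' deposited table). Members of this family resemble each other, so reads may have been divided between these 2 rows. Otub2, which removes ubiquitin, stood at 3.25 and 2.45 FPKM (p = 0.0277 and q = 0.689 in the authors' deposited table), and Ddx24, an RNA helicase, at 19.3 and 17.2. The rows between Lgmn and Otub2 differed little. Golga5, a Golgi golgin, stood at 6.61 and 6.45 FPKM, Itpk1, an inositol phosphate kinase, at 12.2 and 13.1, Ubr7, a ubiquitin ligase, at 17.1 and 16.3, and Asb2, which recruits targets to a ubiquitin ligase, at 3.87 and 3.97.

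**Figure D3:**
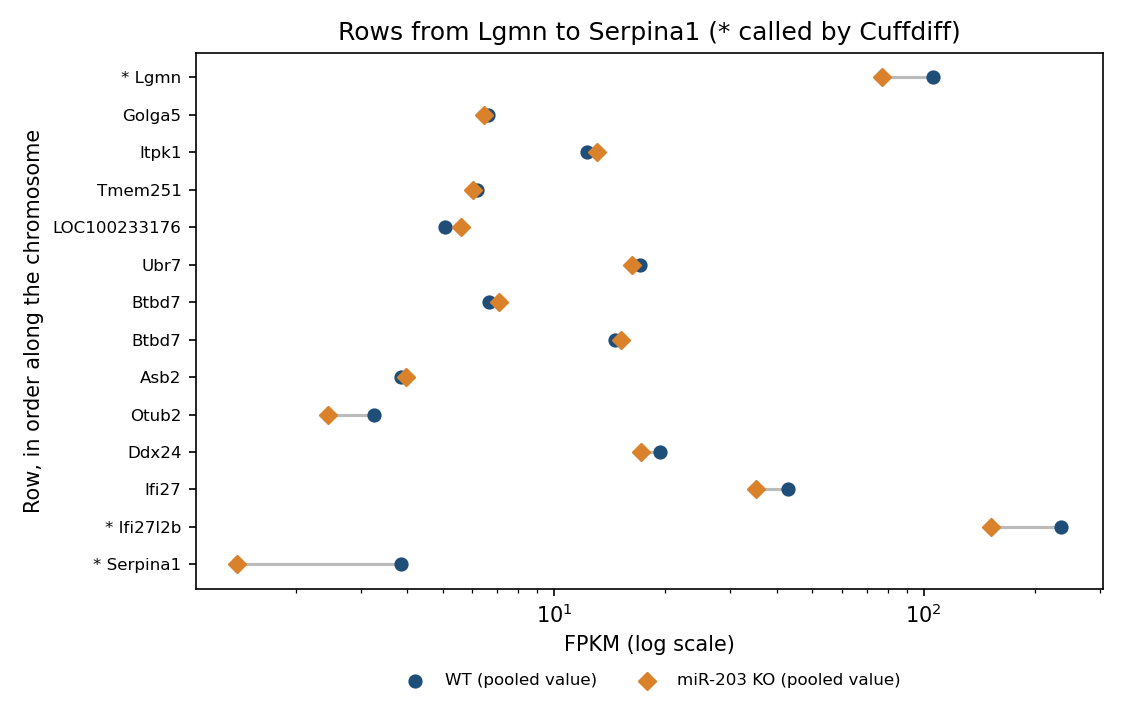
FPKM (log axis) of the 14 rows averaging at least 1 FPKM from Lgmn to Serpina1, in chromosomal order. Circles are the pooled WT value, diamonds the pooled KO value, and an asterisk marks the 3 called rows. The 5 rows from Otub2 to Serpina1 are lower in KO cells, and the rows from Golga5 to Asb2 nearly coincide.

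Promoters of the called genes are shown, and 2 of the 3 matched RefSeq's promoter table by symbol. Whether the 3 decreases are related was not tested. Each runs from 250 bases before to 50 after the start, on GRCr8, a different build from that of the rows, and capitals mark motif matches on either strand.

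Lgmn, chr6:127347279-127347578, minus strand: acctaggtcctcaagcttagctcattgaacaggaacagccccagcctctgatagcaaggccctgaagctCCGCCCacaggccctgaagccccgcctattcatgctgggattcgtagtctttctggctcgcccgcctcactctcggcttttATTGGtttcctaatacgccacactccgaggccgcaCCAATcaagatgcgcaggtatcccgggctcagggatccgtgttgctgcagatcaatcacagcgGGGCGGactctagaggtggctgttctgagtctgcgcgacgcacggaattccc

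Serpina1, chr6:128653076-128653375, minus strand: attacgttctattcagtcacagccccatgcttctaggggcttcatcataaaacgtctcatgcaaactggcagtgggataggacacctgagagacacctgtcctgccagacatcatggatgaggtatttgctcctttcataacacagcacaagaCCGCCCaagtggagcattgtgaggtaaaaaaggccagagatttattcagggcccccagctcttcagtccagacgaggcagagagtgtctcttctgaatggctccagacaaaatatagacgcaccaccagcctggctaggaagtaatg

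The motifs searched on both strands were the TATA box TATAAA, the CCAAT box CCAAT, the SP1 box GGGCGG, the E box CACGTG and the AP-1 site TGANTCA. The Lgmn window held 2 matches of CCAAT, which occurs in 37.5% of all 33469 promoters of that length, and 2 of GGGCGG, which occurs in 33.1%. The Serpina1 window held 1 match of GGGCGG. The TATA box (14.2% of promoters), the E box (6.42%) and the AP-1 site (7.33%) had no match in either window, which says only that these letters are not in these bases.

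Genes of the region that bear on microRNAs and RNA processing were not called. Dicer1, which cuts microRNA precursors to their mature form and lies 8.27 Mb before Kif26a, stood at 7.03 (WT) and 6.22 FPKM (KO) (q = 0.993 in the authors' deposited table). Papola, the main poly(A) polymerase, stood at 29.9 and 29.6 FPKM, and Cpsf2, a subunit of the cleavage complex at poly(A) sites, at 17.3 and 16.5. Wars, the cytosolic tryptophanyl-tRNA synthetase, stood at 24.9 and 21.1 FPKM (p = 0.04425 and q = 0.807 in the authors' deposited table). Of 15 genes listed for RNA processing and translation, 11 were measured at a mean of at least 1 FPKM. Of the 11, 8 were lower and 3 higher, with a median of −0.033. Cuffdiff called none of them, against 1.05% of all tested rows. The 11 include Trip11, Cinp, Gskip and Rps6ka5, whose main roles lie outside RNA processing and translation.

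Past Wars lies the Dlk1-Dio3 domain, a cluster of imprinted genes that carries a large array of microRNAs. Between the Wdr25 row and the next row lay 1.87 Mb without a tested row (132933045 to 134802492). RefSeq's order on GRCr8 places 59 microRNA genes and 6 protein-coding genes between Wdr25 and Ppp2r5c, and none of these protein-coding genes had a tested row under its symbol. Of the 12 genes listed for the domain and its edge, only Yy1, Wars and Wdr25, on the edge, had one. Yy1, a zinc finger transcription factor, stood at 12.7 (WT) and 12.4 FPKM (KO), and Wdr25 at 0.583 and 0.670. A second Wdr25 row, 439 bp long, went the other way, at 0.870 and 0.448 FPKM (q = 0.997 in the authors' deposited table).

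Motor and cytoskeletal genes had similar levels in both groups, with 2 exceptions named below. Of 18 listed, 11 had a mean of at least 1 FPKM, 6 higher and 5 lower, with a median of 0.0025. Cuffdiff called none of them, against 1.05% of all tested rows. The 11 include the short Tdrd9 row given above, whose gene is not cytoskeletal. Dync1h1, the heavy chain of cytoplasmic dynein, stood at 17.0 (WT) and 17.3 FPKM (KO). Crip2, a LIM domain protein, stood at 119.9 and 120.1 FPKM. Ccdc88c, a regulator of Wnt signalling also called Daple, stood at 7.40 and 7.36 FPKM. The exceptions were Inf2, given above, and Eml1, a microtubule-binding protein, at 1.16 and 2.15 FPKM. Eml1, 4.27 Mb before Kif26a, had the smallest q among uncalled rows of the region (p = 0.0053 and q = 0.268 in the authors' deposited table).

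Regulators of transcription and chromatin had 12 of 19 listed genes measured at that level, 5 higher and 7 lower, with a median of −0.020. No call was among the 12, against 1.05% of all tested rows, so a list this short would often hold none. Rcor1, a corepressor partner of the demethylase LSD1, stood at 8.79 (WT) and 8.33 FPKM (KO), Mta1, of the NuRD complex, at 24.8 and 25.04, and Ccnk, a cyclin of transcription elongation kinases, at 12.2 and 11.6. Sp4, an SP family factor, stood at 1.78 and 2.26 FPKM (p = 0.08575 and q = 0.944 in the authors' deposited table). Among 7 measured genes of 11 listed for Akt and survival, 2 were higher and 5 lower, with a median of −0.066. Traf3, an adaptor of TNF receptor and interferon signalling, stood at 11.5 and 9.81 FPKM (p = 0.0507 and q = 0.833 in the authors' deposited table), and Ppp2r5c, a regulatory subunit of phosphatase 2A, at 40.4 and 39.4.

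Metabolic enzymes and the list of receptors and secreted proteins complete the lists. Of 16 genes listed as metabolic, 6 were measured, 2 higher and 4 lower, with a median of −0.035. Cuffdiff called none of them, against 1.05% of all tested rows. The 6 include Tdp1, a DNA repair enzyme, and Atg2b, an autophagy protein. Glrx5, of mitochondrial iron-sulfur cluster assembly, stood at 23.8 and 23.4 FPKM, and Galc, a lysosomal galactosylceramidase, at 4.13 and 3.50. The receptor and secreted list had 6 of 21 genes at that level, all lower in KO cells, with a median of −0.29. Of these, 2 were called lower (Lgmn and Ifi27l2b), against 0.556% of all tested rows. The 6 were Galc, Lgmn, Otub2, Ifi27, Ifi27l2b and Tnfaip2. Galc and Lgmn are lysosomal enzymes, Otub2 acts inside the cell, and none of the 6 is a cell surface receptor. Of 7 listed genes with a tested row, the remaining one, Fbln5, averaged under 1 FPKM and was higher in KO cells (0.711 and 0.906 FPKM). This list was written with earlier results of these data known, so its direction is a description. Of 13 Serpina cluster genes, Serpina1 was the only one with a tested row.

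Among the 6 highest levels of the region were 4 of the 5 rows of Ighm, the constant region of the IgM heavy chain that B cells make. The 5 Ighm rows lie within 1217 bp (138188558 to 138189775), are 121 to 220 bp long each, and ranged from 218 to 698 FPKM in WT and from 234 to 785 in KO cells. In order along the chromosome they stood at 541, 218, 698, 416 and 476 FPKM in WT cells. In KO cells the same rows stood at 493, 234, 785, 539 and 540 FPKM. All rows but the first were higher in KO cells, and the smallest q was 0.807 in the authors' deposited table. Loci this short have unreliable FPKM, so the level is uncertain as well as the difference.

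Of the 6 B cell markers, Cd79a and Cd79b, the signalling partners of the B cell receptor, had a tested row. Cd79a stood at 31.7 (WT) and 23.9 FPKM (KO), and Cd79b at 21.5 and 24.5. The authors' deposited table lists q = 0.346 for the former and q = 0.997 for the latter. Ms4a1, Pax5 and Cd22 had no tested row under their symbols, nor did the leukocyte marker Ptprc. The only leukocyte marker with a tested row was Csf1r, the receptor of macrophage colony-stimulating factor, at 0.791 and 0.2004 FPKM, called lower with q = 0.0187 by the authors' deposited table. The part of other cells in the Ighm signal was not tested.

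The distal end had lower ratios than the rest of its chromosome. Its median was −0.024 with quartiles of −0.12 and 0.066, and 59 of 134 rows (44.0%) were higher in KO cells. From 130 Mb on, which includes Kif26a, the median was −0.0015 and 50% of rows were higher. Over the rest of chromosome 6 the median was 0.064 and 455 of 704 rows (64.6%) were higher, and over all rows 51.1% were. Whole chromosomes ranged in median from −0.032 (chromosome 2, with 42.8% of rows higher) to 0.057 (chromosome 3), so the distal end lies within that range and the rest of chromosome 6 above it. In blocks of 20 Mb the share of higher rows was 54.9%, 57.6%, 66.3%, 77.8%, 69.2% and 69.7% up to 120 Mb, then 45.1% in the block that begins there. That block holds 122 of the 134 rows, and the last 12 rows had 33.3%. Rows called in the rest of chromosome 6 were 7 of 1068, or 0.655%. The difference between the 2 parts of the chromosome was not tested.

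At the boundary itself, the last row outside was AABR07065265.1, a locus of 97 bp at 906 (WT) and 1004 FPKM (KO), and before it Sel1l, of ER-associated degradation, at 8.49 and 8.51. The first rows inside were Galc, given above, and Spata7, a cilium protein, at 3.96 and 4.20 FPKM.

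**Figure D4:**
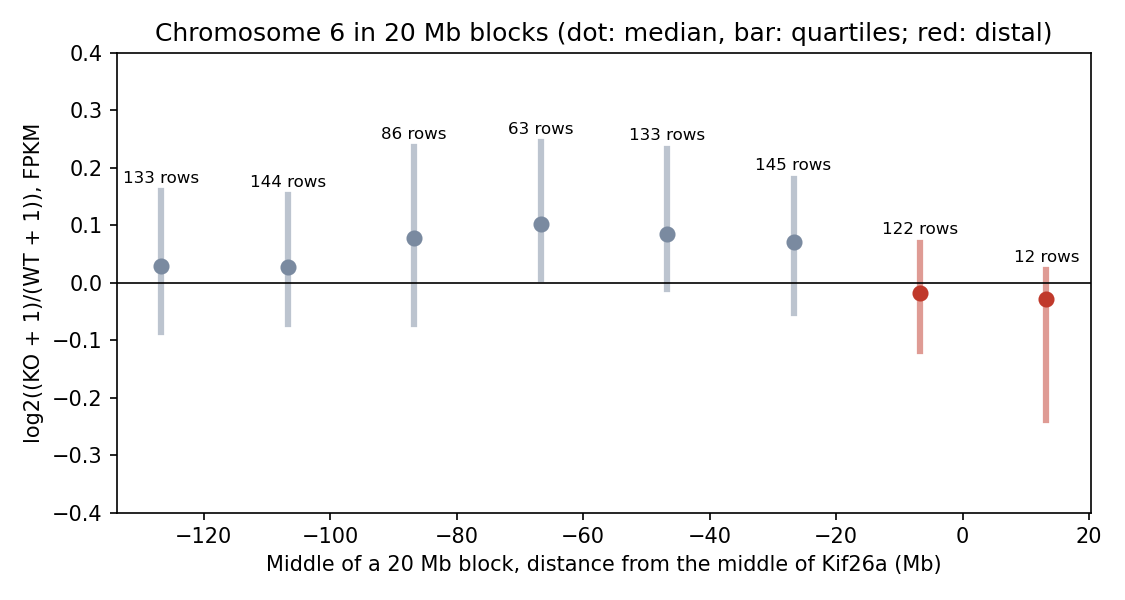
Median (dot) and quartiles (bar) of the log2 ratio of KO over WT with a pseudocount of 1, for rows of chromosome 6 with a mean of at least 1 FPKM in blocks of 20 Mb, placed by distance from Kif26a in Mb. The number of rows stands above each bar, and the 2 distal blocks are red. Medians of the 6 other blocks lie between 0.028 and 0.103, and those of the distal blocks at −0.017 and −0.028.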

How the data were processed

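Per the labels' protocols, total RNA was made into stranded (dUTP) libraries, and, per the submitters' processing notes, TopHat 0.9, Cufflinks 2.2.1 and Cuffdiff 2.2.1.3 were used with rn6. The sources used here do not give the annotation, the options or whether counting used strand. Per the file headers, the authors deposited for each row 1 FPKM value per group, the log2 fold change, a test score, a p-value and a q-value. Cells have decimal commas and were read as decimal points. Rows with status OK were used, and 2 rows of the region were not tested by the authors.

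The planned test on values per sample could not be run, so calls are the authors' q under 0.05. Ratios used a pseudocount of 1 and rows averaging at least 1 FPKM. For lists, the longest row per symbol was taken, or the highest mean where lengths tied. Distances run between row ends. Alternatives changed the pseudocount, filter, scaling, row choice, region start and window. Named rows are the calls, rows with a symbol within 1 Mb of Kif26a, the 6 highest, the 4 largest uncalled differences each way among rows with a symbol, list members and boundary rows, and some of them are summarised only. Rows named besides these were chosen after their values were seen. They are those without a symbol, Golga5, Ubr7, Asb2, Wdr25, Fbln5, Sel1l, Spata7, Csf1r, Kcnk13 and Psmc1. Calm2, Macc1, the short LOC690422 row and the Ppp4r3a rows other than the one at 3.02 FPKM in WT cells were chosen likewise. The row status of a single marker gene is not reported here. Members and lists were chosen with earlier results of these data known. The medians and adjustment were tested on simulated data or against the deposited q. Python 3.11.15, pandas 2.3.3, NumPy 2.4.6, SciPy 1.17.1 and matplotlib 3.10.9 were used.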

Additional observations from a re-analysis of the deposited data

How the results depend on the processing

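The 3 calls became 1 (Serpina1) where a 2-fold difference was also demanded. They became 0 by Cuffdiff's q with the region starting at 130 Mb, which leaves out the called stretch. Past that point 9 of 121 rows had an unadjusted p under 0.05 in the authors' deposited table, against 1588 of all 26459 tested rows. Under the other 6 alternatives the count of calls was 2 or 3. Most of these could not drop a call. All 3 calls have a symbol, a locus over 300 bp and q = 0.00756 by Cuffdiff, and an earlier start only adds rows. The count of 2 arose where a minimum mean of 5 FPKM left out Serpina1. The median of the region ranged from −0.035 to −0.0015 under 13 alternatives and its share of higher rows from 40% to 50%. The values of −0.0015 and 50% both came with the region starting at 130 Mb. A pseudocount cannot change the sign of a row's ratio, so pseudocounts of 0.1 and 5 left that share at 44.0% by design. The median within 1 Mb of Kif26a was 0.027 and ranged from −0.031 (minimum mean of 5 FPKM) to 0.039 (rows with a symbol) under 14 alternatives, so it had no stable sign; with 1 row per locus, an alternative chosen after seeing the data, it was −0.022. The 80 named rows gave 400 values under other settings, as folds with the setting's own pseudocount. All were within 1.5 times of the fold with a pseudocount of 1, which for scarce rows is smaller than the ratios given above. For Serpina1, the log2 ratio was −1.02 with a pseudocount of 1 and −0.47 with a pseudocount of 5, and the authors' deposited log2 fold was −1.47. Among the 80 rows, 4 with a log2 ratio of at most 0.025 in size changed sign. No paired analysis was possible because samples were pooled within each group by the authors. Hence leaving out each replicate, the replicate block and limma were not run. Depth is unknown, and loci under 300 bp (15 of the 192) have the least reliable values.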

Other observations

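Of the 192 rows, 15 had an unadjusted p under 0.05 in the authors' deposited table, as had 1588 of all 26459 tested rows. Besides those given above, Kcnk13, a potassium channel subunit, stood at 0.471 (WT) and 0.934 FPKM (KO), and a 528 bp row of LOC690422 at 0.245 and 0.736. Ppp4r3a, a regulatory subunit of phosphatase 4, had 3 rows on the same locus. The highest stood at 17.0 (WT) and 16.7 FPKM (KO), and the others at 3.02 and 4.93 FPKM and at 4.58 and 4.43. Each is listed at q = 0.997 in the authors' deposited table. A pair of short loci without a named function had high levels that were lower in KO cells. AABR07065923.1 (262 bp) stood at 555 (WT) and 357 FPKM (KO), with p = 0.0253 and q = 0.667 in the authors' deposited table, and AABR07065776.1 (135 bp) at 601 and 406. The highest level of the region, 1594 FPKM in WT and 1567 in KO cells, belonged to a row of 121 bp without a symbol near the chromosome's end.

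Among further genes, Psmc1, a proteasome ATPase, stood at 39.2 (WT) and 37.2 FPKM (KO), the row named Calm2, for calmodulin, at 52.8 and 55.1, and Macc1, a regulator of the receptor Met, at 7.57 and 7.38. The 44 rows with a mean of 5 to 20 FPKM had log2 ratios from −0.21 to 0.21.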
